A study of Mus musculus with 4 samples.

Results

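Cohesin and condensin are the ring-shaped complexes that hold sister chromatids together and compact chromosomes. The 10 genes followed here encode 5 cohesin subunits (Smc1a, Smc3, Rad21, Stag1 and Stag2) and 5 condensin subunits (Smc2, Smc4, Ncapd2, Ncapg and Ncaph). They were chosen by name, with earlier results of these data known. All 10 were found among the 37311 gene identifiers counted, and all 10 passed the filter on low counts. The measurements compare ribosome-protected fragments (RPF, the stretches of mRNA covered by translating ribosomes) with total RNA. J1, a mouse embryonic stem cell line from the strain 129S4/SvJae, was kept feeder-free on gelatin with serum and LIF, the cytokine that sustains self-renewal. Every culture had been infected with short hairpin RNAs against eIF4A3, an RNA helicase of the exon junction complex. Cells were selected with puromycin at 1 µg/mL for 3 days and taken on day 4.5 after infection, following 1 min in 0.1 mg/mL cycloheximide, which holds ribosomes in place. Each fraction has 2 libraries, described as biological replicates, so there are 2 RPF and 2 total RNA libraries, all with the knockdown. The labels name a pair of hairpins without saying which library received which. Control cells were not analysed here, so each comparison sets footprints against RNA in knockdown cells and says nothing of what the knockdown changed.

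Both complexes are built on a pair of long SMC ATPases, which meet at a hinge and are closed into a ring by a kleisin. In mitotic cohesin the pair is SMC1A and SMC3, the kleisin is RAD21, and either STAG1 or STAG2 binds RAD21. In condensin the pair is SMC2 and SMC4. Condensin I adds the kleisin NCAPH and the HEAT-repeat subunits NCAPD2 and NCAPG, while condensin II uses NCAPH2, NCAPD3 and NCAPG2 with the same SMC pair. Dividing cells need both complexes, and cohesin also extrudes chromatin loops in interphase.

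Gene counts summed to between 7615277 and 9434987 per library. Reads that fell on more than 1 gene made up 4.96% and 8.58% of all tallied alignments in the RPF libraries, against 0.755% and 0.719% in the total RNA libraries. Eif4a3, the hairpins' target, had 1640 and 1325 counts in RPF and 1229 and 975 counts in total RNA, and with no uninfected cells to set them against, these counts do not show how far it was depleted. The labelled cell type was checked on its markers. All 8 stem cell markers (among them Pou5f1, Nanog and Zfp42) exceeded 1 CPM (counts scaled to a common library total) in every library, with a summed level of 5786 to 6222 CPM in RPF and 3769 to 4154 CPM in total RNA. Summed fibroblast markers reached 187 to 365 CPM in RPF and 80.2 to 147 CPM in total RNA, most of it Vim, while Dcn was at 0 counts throughout. Trophectoderm markers summed to 81.9 to 90.5 CPM in RPF and 35.8 to 39.5 CPM in total RNA, and primitive endoderm markers to 53.2 to 72.0 CPM in RPF and 36.7 to 53.3 CPM in total RNA. The mark of 1 CPM was also passed in every library by all 6 primitive endoderm, 3 of 6 trophectoderm and 3 of 8 fibroblast markers. Passing it does not set the stem cell markers apart, though their sums were the highest. The stem cell, fibroblast and trophectoderm sums were higher in both RPF libraries than in both total RNA libraries. The primitive endoderm sums just overlapped. The part of these marker levels in the results was not tested. In such bulk libraries fewer cells of a type and less RNA per cell cannot be told apart.

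The comparison of RPF with total RNA asks how many footprints a gene had for the RNA it had, relative to other genes. Of the 10 subunit genes, 5 had a higher ratio in RPF (Smc1a, Smc3, Smc2, Ncapg and Ncaph), with edgeR's quasi-likelihood test and an adjusted p under 0.05. Among all 13809 genes tested, 20.5% were called higher and 21.2% lower, 41.7% in all. Without total RNA replicate 1, and again without total RNA replicate 2, the calls among the 10 were 2, Smc1a and Ncaph. With TMM scaling and no replicate block, edgeR called none of the 10 lower. In the fit reported here none had an unadjusted p under 0.05 in that direction, and DESeq2 and limma-voom called none lower either. With replicate number as a block, edgeR called Stag1 lower (log2 -0.26, adjusted p = 0.0108). The block leaves little of each gene's own spread to measure in 4 libraries. Its standard error was 0.094 for Stag1, Smc2, Ncapd2 and Smc4 alike. With libraries scaled by size alone, 1 of the 10 was called higher (Smc1a) and 2 lower, Stag1 (-0.68, adjusted p = 0.0196) and Stag2 (-0.51, adjusted p = 0.0475). The median log2 ratio of the 10 was 0.37, against -0.02 over all genes tested. In normalised CPM both RPF libraries lay above both total RNA libraries for 7 of the 10, against 34.9% of all genes, and below them for Stag1 alone, against 37.9% of all genes. These shares carry no test, since the genes were picked by name and with earlier results of these data known.

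**Figure D1:**
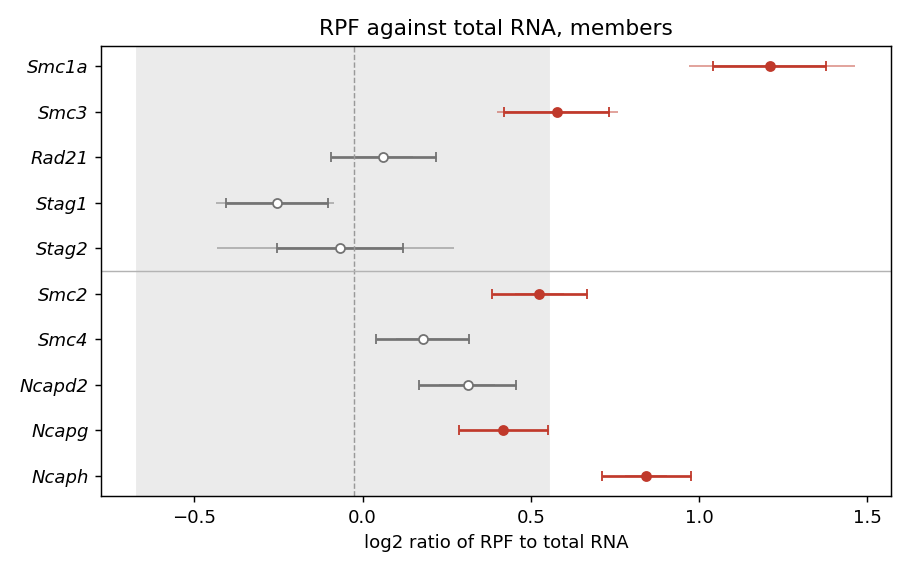
Log2 ratio of RPF to total RNA (x axis) for the 5 cohesin (above the line) and 5 condensin subunits; points and capped bars are the fitted ratio and its standard error, thin lines the range over the 4 pairings of libraries, filled red points a call as higher, and open points no call. The grey band spans the middle of all genes tested, -0.67 to 0.56, and the dashed line their median; Smc1a (1.21), Ncaph (0.84) and Smc3 (0.58) stand to the right of the band, and Ncapg, inside it at 0.42, is at -0.01 when libraries are scaled by size alone.

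The scaling sets where 0 lies. With library size alone in place of trimmed-mean (TMM) scaling, the median gene stood at -0.46 in place of -0.02, 19.8% of all calls were higher in place of 49.2%, and Rad21, Smc4, Ncapd2 and Ncapg took a negative sign. Relative to the median of all genes the members kept their places. Smc1a lay 1.23 above it under either scaling, Ncaph 0.87, and Smc3 0.60.

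Cohesin's SMC pair had more footprints for its RNA than the median gene. Smc1a, which encodes the SMC1 subunit of mitotic cohesin, had 324 and 288 CPM in RPF replicates 1 and 2, against 147 and 118 CPM in total RNA replicates 1 and 2. The lower of its RPF libraries was well above the higher of its total RNA libraries. The ratio was 2.31-fold (log2 1.21 ± 0.17 SE, adjusted p = 0.00218), which put Smc1a at the 93.1 percentile of all ratios. It was the only gene of the 10 called under each of the 14 alternative settings, with an adjusted p of at most 0.0125.

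Smc3, which encodes the partner ATPase whose acetylation locks cohesin on DNA, had 329 and 301 CPM in RPF and 228 and 194 CPM in total RNA. Its libraries did not overlap either, at a ratio of 1.49-fold (log2 0.58 ± 0.16 SE, adjusted p = 0.0234). The call ended without either total RNA library, which leaves 1 in that group. The log2 ratio rose to 0.69 without total RNA replicate 1 and fell to 0.46 without total RNA replicate 2. A correction for coding share, explained with the coding sequences further on, ended the call too (log2 0.30, adjusted p = 0.17). So did library size alone (0.15, adjusted p = 0.44) and the test against a fold of 1.5 (adjusted p = 0.538).

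Rad21, the kleisin that separase cuts at anaphase, had the most counts of the 10. It stood at 456 and 455 CPM in RPF and at 462 and 411 CPM in total RNA. The RPF values fell within the range of the total RNA values, and no difference was called (log2 0.06 ± 0.16 SE, adjusted p = 0.777). Its sign turned without total RNA replicate 2 (-0.02).

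Stag1 and Stag2 encode alternative subunits that bind the kleisin, and a cohesin ring holds either product. Stag1 had 108 and 133 CPM in RPF and 141 and 147 CPM in total RNA, so that the RPF libraries were the lower ones, without a call (log2 -0.25 ± 0.15 SE, adjusted p = 0.22). Stag2 had 87.8 and 63.9 CPM in RPF and 86.3 and 72.7 CPM in total RNA, with overlapping libraries and no call (-0.07 ± 0.19 SE, adjusted p = 0.80). The RPF replicates differed in both genes, and in opposite ways: Stag1 was lower and Stag2 higher in replicate 1. For Stag2 the exact 95% Poisson intervals of the RPF counts, 81.3 to 94.7 CPM in replicate 1 and 58.0 to 70.1 CPM in replicate 2, did not meet. Its ratio turned positive without RPF replicate 2 (0.16) and without total RNA replicate 1 (0.06).

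Stag1 and Stag2 are the closest relatives among the 10, so how far their sequences can be told apart bears on their counts. The longest run of identical bases between their coding sequences is shown to bear on this, in capitals, with 20 bases on each side (GENCODE M21 transcripts, GRCm38, sense strand; Stag1 lies on chromosome 9 and Stag2 on chromosome X).
Stag1: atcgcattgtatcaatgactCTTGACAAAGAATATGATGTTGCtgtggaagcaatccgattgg
Stag2: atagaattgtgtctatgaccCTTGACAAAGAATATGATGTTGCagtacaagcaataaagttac
The run is 23 bases long, coding positions 1147 to 1169 of Stag1 and 1138 to 1160 of Stag2, and 49 of the 63 bases shown are identical. A stretch of 28 coding bases, close to the length of a footprint, therefore tells these coding sequences apart when it is read without error. Between the SMC genes the longest shared runs were shorter, from 12 bases (Smc1a with Smc3) to 15 bases (Smc2 with Smc4). Over all annotated transcripts, Smc1a, Smc2 and Ncaph shared none of their 28-base stretches with another gene. The others shared 0.317% (Stag1) to 3.3% (Ncapd2), apart from Ncapg, at 12.6%.

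**Figure D2:**
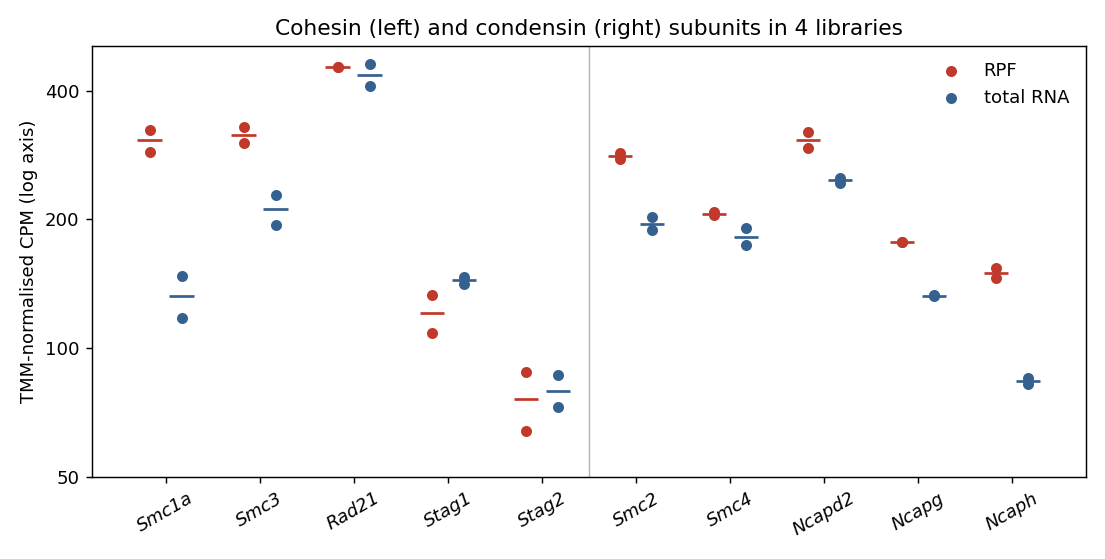
Normalised CPM on a log axis of the 5 cohesin subunits (left of the grey line) and 5 condensin subunits (right) in 2 RPF libraries (red) and 2 total RNA libraries (blue); points are libraries and bars their means. Smc1a has the widest gap between fractions, 306 CPM in RPF against 132 CPM in total RNA, and Rad21 the highest level in both.

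Among the condensin subunits, the kleisin Ncaph stood highest by ratio. It had 146 and 154 CPM in RPF, against 84.9 and 82.3 CPM in total RNA. The replicates of each fraction lay close together and the fractions far apart, at a ratio of 1.79-fold (log2 0.84 ± 0.13 SE, adjusted p = 0.00322). The call was kept without any single library, each time with 1 library left in that group, and when coding share was corrected for (0.61, adjusted p = 0.01). It was missed with library size alone (0.41, adjusted p = 0.0564) and in a test against a fold of 1.5 (adjusted p = 0.06).

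In condensin's SMC pair, Smc2 was called and Smc4 was not. Smc2 had 286 and 277 CPM in RPF against 202 and 189 CPM in total RNA (log2 0.53 ± 0.14 SE, adjusted p = 0.0226). Smc4 had 205 and 208 CPM in RPF against 174 and 191 CPM in total RNA, and was not called (0.18 ± 0.14 SE, adjusted p = 0.335). In both genes the RPF libraries were above the total RNA libraries. Smc2 lost its call without total RNA replicate 1 (log2 0.57) and without total RNA replicate 2 (0.47), each of which leaves 1 library in that group. Its call was also lost when coding share was corrected for (adjusted p = 0.201) and with library size alone (log2 0.09, adjusted p = 0.605). The test against a fold of 1.5 ended it as well (adjusted p = 0.685).

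Ncapd2 and Ncapg encode the HEAT-repeat subunits that bind the kleisin of condensin I. Ncapd2 had 319.6 and 293 CPM in RPF against 243 and 250.5 CPM in total RNA, without a call (log2 0.31 ± 0.14 SE, adjusted p = 0.122). Ncapg had 177 CPM in each RPF library against 132 and 133 CPM in total RNA, a ratio of 1.34-fold (0.42 ± 0.13 SE, adjusted p = 0.0395). Its replicates were almost equal, yet it was the least secure of the 5 calls, kept in 3 of 14 alternative settings. Leaving out any single library ended it, though the log2 ratio stayed between 0.41 (without total RNA replicate 1) and 0.43 (without RPF replicate 1). Ncapg shares 944 exon bases with Lcorl, which lies on the opposite strand, 182 of them coding. Lcorl had 34 and 29 counts in RPF and 89 and 82 in total RNA. The strand setting of the counting is not given in the sources used here, so reads from the shared stretch cannot be told apart. Ncapd2 contains the small RNA Scarna10 in 237 noncoding exon bases, and Scarna10 itself was given 280 and 127 counts in RPF and 354 and 204 in total RNA. The part of these overlaps in the ratios was not tested.

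Levels of different genes can be compared only per length. Footprints were divided by the longest annotated coding sequence and total RNA by the union of annotated exons, giving CPM per coding kb and CPM per exon kb. Rad21 was far above the other subunits on both scales, with 239 ± 0.533 CPM per coding kb in RPF and 103 ± 8.52 CPM per exon kb in total RNA (SD, n = 2 libraries). Stag2 was lowest on both, with 19.9 ± 4.45 CPM per coding kb in RPF and 9.6 ± 1.16 CPM per exon kb in total RNA. For reference, the median coding gene had 15.5 CPM per coding kb in RPF and 5.4 CPM per exon kb in total RNA, so every subunit gene lay above the median in both fractions.

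In footprint density, Rad21 was followed by Smc3 (86.4 ± 5.44 CPM per coding kb), Smc1a (82.8 ± 6.86) and Smc2 (78.8 ± 1.64). The libraries of Smc3 and Smc1a overlapped, as did those of Smc1a and Smc2. Then came Ncapd2 (73.4 ± 4.45) and Ncaph (68.4 ± 2.66), which overlapped each other, and Ncapg (58.8 ± 0.191), Smc4 (53.5 ± 0.696) and Stag1 (32.0 ± 4.62), each apart from its neighbours. In total RNA density, Ncapd2 (39.4 ± 0.821 CPM per exon kb), Smc3 (38.1 ± 4.3), Smc2 (35.7 ± 1.77) and Smc4 (35.0 ± 2.26) followed Rad21, each overlapping its neighbour in that order. Smc1a (23.0 ± 3.62), Ncaph (19.4 ± 0.432), Ncapg (18.7 ± 0.0549) and Stag1 (12.2 ± 0.323) stood apart from their neighbours. With the length of the longest-coding transcript in place of the exon union, the total RNA densities of Stag1 (23.3), Ncapg (35.8) and Ncaph (31.0) came out more than 1.5 times higher. By mean, Ncapg and Ncaph then stood above Smc1a (28.2), so the places of these genes in the total RNA order depend on the length used.

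**Figure D3:**
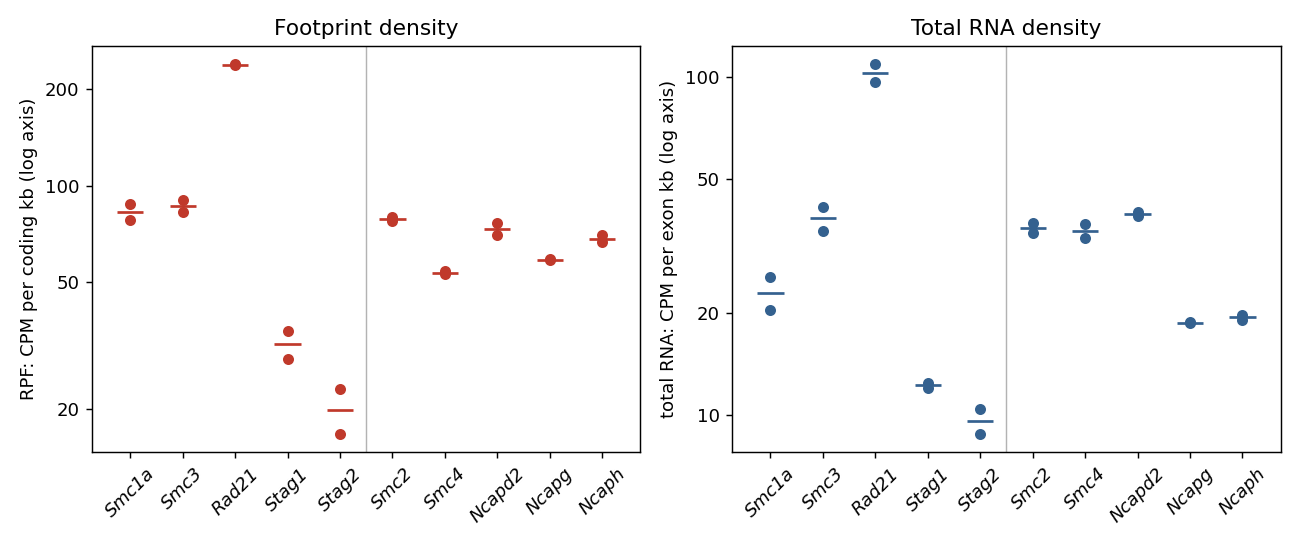
Footprint density in CPM per coding kb (left, 2 RPF libraries) and total RNA density in CPM per exon kb (right, 2 total RNA libraries), on log axes, for the 5 cohesin and 5 condensin subunits; points are libraries and bars means. Smc1a and Smc3 lie level in RPF and apart in total RNA, and the 5 condensin subunits lie between 53.0 and 79.9 CPM per coding kb in RPF.

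The SMC partners of cohesin had nearly equal footprint densities and unequal RNA densities. Smc3 exceeded Smc1a by 1.03-fold and 1.06-fold in RPF replicates 1 and 2, and by 1.61-fold and 1.72-fold in total RNA replicates 1 and 2 (1.499-fold and 1.60-fold with the longest-coding transcript). The log2 ratio of Smc1a to Smc3 in CPM was -0.02 and -0.06 in RPF and -0.63 and -0.72 in total RNA, so the fractions did not overlap, with a difference of 0.64. An exact two-sided permutation test over the 2 and 2 libraries gave p = 0.333, the smallest value the design allows. In condensin the pair moved apart in RPF: Smc4 stood at 0.66 and 0.70 of the density of Smc2 in RPF, and at 0.90 and 1.06 of it in total RNA. Here too the fractions did not overlap (a log2 difference of -0.35, exact permutation p = 0.333). Stag2 made up 44.5% and 32.2% of the summed Stag1 and Stag2 density in RPF, and 46.5% and 41.4% in total RNA, with overlapping fractions (exact permutation p = 1). By the longest-coding transcript, mean total RNA density was 42.3 CPM per kb for Smc4 and 36.2 for Smc2. It was 12.9 for Stag2 and 23.3 for Stag1, so the shares in total RNA depend on the length used. The pairs given here were 3 of 6 compared, and no pair of so few libraries can reach 0.05.

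Across the whole of condensin I, the highest footprint density was 1.51 and 1.44 times the lowest in the RPF libraries. In total RNA the same 5 genes spanned 2.07-fold and 2.13-fold, or 1.67-fold and 1.77-fold with the longest-coding transcript. Cohesin had no such narrow range in either fraction. Its 5 genes spanned 10.4-fold and 14.2-fold in RPF and 10.5-fold and 11.05-fold in total RNA, with Stag2, an alternative to Stag1, lowest. Summed, Stag1 and Stag2 had 51.8 and 52.1 CPM per coding kb in RPF, against 239.4 and 238.6 for Rad21. The 3 subunits particular to condensin II spanned 6.53-fold and 6.41-fold in RPF and 6.98-fold and 6.99-fold in total RNA. Rad21 had 2.65 and 2.89 times the footprint density of Smc3 in RPF, and 2.65 and 2.77 times its RNA density in total RNA. Stag1 and Stag2 together came to 0.57 and 0.63 of the density of Smc3 in RPF and to 0.54 and 0.61 of it in total RNA. The total RNA values depend on the length used. By the longest-coding transcript, mean total RNA density was 23.3 CPM per kb for Stag1, 12.9 for Stag2 and 43.6 for Smc3.

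The annotated start codons of these messages are shown here. Where translation began was not measured, since only counts per gene were used. The bases around a start codon are known to affect how well a scanning ribosome uses it. Each line runs from 10 bases before the start codon to 14 bases from its first base (GENCODE M21 transcript with the longest coding sequence, sense strand). Capitals mark the base at position -3, the start codon and the base at +4, counting the A of ATG as +1.
Smc1a: cgccgctGtcATGGgtttcctgaa
Smc3: gcgcggaGccATGTacatcaagca
Rad21: aataagaAaaATGTtctacgcaca
Stag1: ttctccaGcaATGAttacttcaga
Stag2: tgataaaGaaATGAtagcagctcc
Smc2: agtttagAaaATGTatgttaaatc
Smc4: gacagccAccATGCggcgtaaggg
Ncapd2: ggggagaAagATGTctccccacaa
Ncapg: tcccggcGccATGGcagcgcagaa
Ncaph: ggagagcAagATGAgaattccgcg
All 10 have A or G at -3, as do 83.9% of 20145 mouse coding genes. The letters ANNATGG or GNNATGG, read on the sense strand only, occur in Smc1a and Ncapg and in 41.0% of coding genes. Smc1a, with the highest ratio of the 10, has them, and Ncaph, with the second highest, does not. The match is a description of these windows and was not tested against the ratios.

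Ribosome footprints come mainly from coding sequence, and the share of a gene's exon bases that is coding varied along with the ratio; its part in the members' ratios was not tested beyond the correction given here. Among coding genes tested, split into 5 equal groups by coding share, the median log2 ratio was -0.29 in the group with the smallest share and 0.25 in the group with the largest. The subunit genes are mostly coding-rich: 5 of them (Smc1a, Smc3, Smc2, Smc4 and Ncapd2, at 64.1% to 74.1%) fell in the group with the largest share. Stag1, at 32.6%, was the only one under the median of 35.8%. A smooth curve (loess) through all coding genes put the ratio at 0.21 for the coding share of Smc1a and at -0.03 for that of Stag1. After this correction, 2 of the 10 were called higher, Smc1a (0.94, adjusted p = 0.00524) and Ncaph (0.61, adjusted p = 0.01). Rad21 (-0.11) and Smc4 (-0.11) then took a negative sign without a call.

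**Figure D4:**
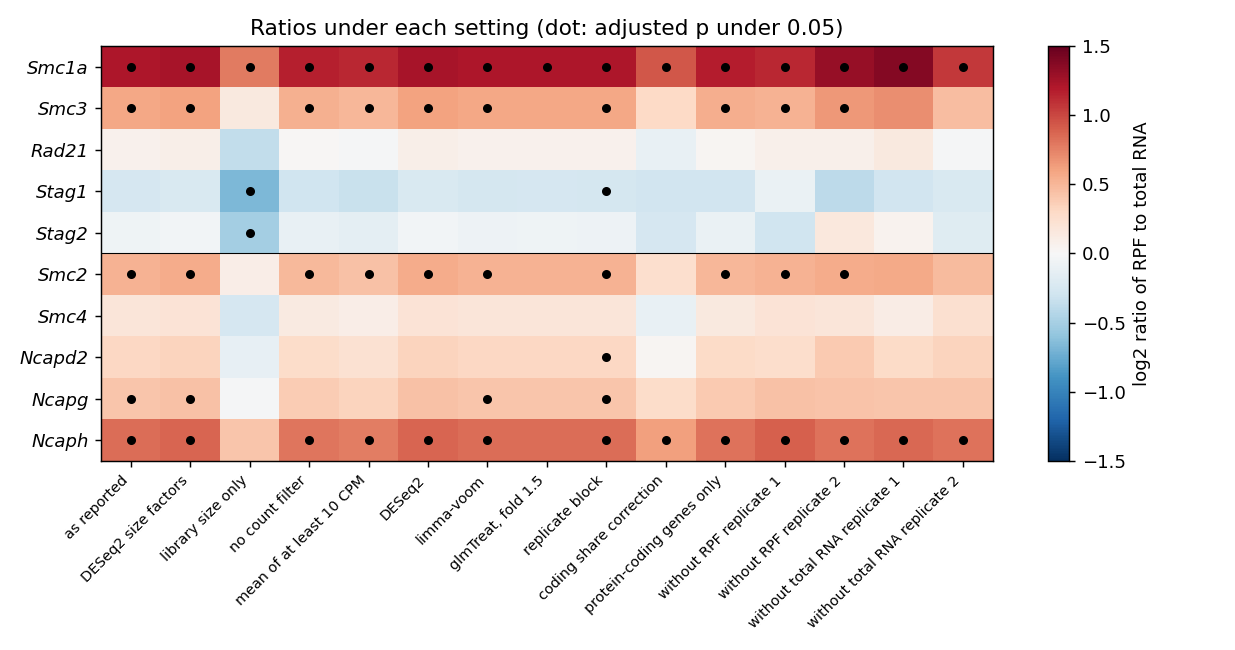
Log2 ratio of RPF to total RNA (colour) of the 10 subunit genes (rows, cohesin above the line) as reported and under 14 alternative settings (columns), with a dot where the adjusted p was under 0.05. Smc1a carries a dot in every column and Ncaph in all but library size alone and the test against a fold of 1.5, while Rad21 and Smc4 carry none.

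The subunits that set condensin II apart had no call with TMM scaling, the count filter and neither correction nor replicate block. They had a few calls in other settings. Ncapd3 had 132 and 104 CPM in RPF against 100.3 and 100.1 CPM in total RNA (log2 0.24 ± 0.16 SE, adjusted p = 0.258). Ncapg2 had 66.3 and 71.4 CPM in RPF against 87.3 and 85.6 CPM in total RNA (-0.33 ± 0.13 SE, adjusted p = 0.0822). Ncaph2 shares 829 exon bases with Sco2 and 535 with Tymp, both on the opposite strand, none of them coding in Ncaph2. Of its 28-base stretches, 32.4% also occur in other genes, and the part of this in its ratios was not tested. Ncaph2 had 232 and 244.5 CPM in RPF against 257 and 253 CPM in total RNA (-0.10 ± 0.14 SE, adjusted p = 0.60). DESeq2 and limma-voom called none of the 3 either, and only Ncapg2, as lower, had an unadjusted p under 0.05 in edgeR. Ncapg2 was called lower with library size alone (-0.76, adjusted p = 0.00732), with a minimum mean of 10 CPM (-0.41, 0.0352) and after the coding share correction (-0.39, 0.0494), and Ncaph2 with library size alone (-0.53, 0.0236). Ncapd3 took a negative sign with library size alone (-0.20) and after the coding share correction (-0.015). With replicate number as a block, edgeR called Ncapd3 higher (0.23, adjusted p = 0.025) and Ncapg2 lower (-0.33, adjusted p = 0.00189). Each condensin I subunit was also set against its condensin II counterpart within libraries. The log2 CPM ratio of Ncaph to Ncaph2 was -0.67 in both RPF libraries and -1.60 and -1.62 in total RNA, a difference of 0.94. For Ncapg and Ncapg2 it was 1.41 and 1.31 in RPF and 0.60 and 0.63 in total RNA, and in both pairs the fractions did not overlap (exact permutation p = 0.333 each). For Ncapd2 and Ncapd3 they overlapped, with 1.27 and 1.49 in RPF and 1.28 and 1.32 in total RNA (exact permutation p = 1).

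Of 33 related genes, 31 could be tested, and 9 had a higher and 6 a lower ratio, beside 20.5% and 21.2% of all genes. Their median log2 ratio was 0.11. Among the 12 regulators of cohesin loading, release, acetylation and protection, 1 was higher and 3 were lower. Wapl, which opens the ring and takes cohesin off chromatin, had 202 and 213 CPM in RPF against 341 and 331 CPM in total RNA (log2 -0.69 ± 0.14 SE, adjusted p = 0.00833). The other lower genes, named after their values were seen, were the pair that forms the loader: Mau2 (-0.65 ± 0.13 SE, adjusted p = 0.00828) and Nipbl (-0.48 ± 0.13 SE, adjusted p = 0.026). Esco1, an acetyltransferase of SMC3, was higher (1.28 ± 0.32 SE, adjusted p = 0.0171), at 131 and 65.2 CPM in RPF against 35.2 and 45.8 CPM in total RNA. Its RPF libraries lay far apart, and the ratio came to 0.70 without RPF replicate 1, which leaves 1 RPF library. Of its 28-base stretches, 11.2% also occur in Gm7054.

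Both genes of the cleavage step were called higher, and Pttg1 kept its call under all 14 alternative settings. Pttg1, securin, which restrains separase until anaphase, had 71.5 and 82.4 CPM in RPF against 25.9 and 29.8 CPM in total RNA, a ratio of 2.76-fold (log2 1.46 ± 0.16 SE, adjusted p = 0.00105). Espl1, separase itself, had 308 and 272 CPM in RPF against 184 and 196 CPM in total RNA (0.61 ± 0.15 SE, adjusted p = 0.0155). The Espl1 call ended without total RNA replicate 1 (log2 0.56) and without total RNA replicate 2 (0.65), each of which leaves 1 library in that group. It also ended after the coding share correction (log2 0.32, adjusted p = 0.127), with library size alone (0.17, adjusted p = 0.343) and against a fold of 1.5 (adjusted p = 0.45). The germline subunits were mostly scarce, and Rad21l, with 2 or 3 counts per library, stayed below the filter. Stag3, which replaces STAG1 and STAG2 in meiotic cohesin, was the exception: it had 76.2 and 118 CPM in RPF against 72.5 and 94.4 CPM in total RNA, without a call (0.22 ± 0.23 SE, adjusted p = 0.486). Its footprint density, 26.1 ± 7.97 CPM per coding kb, lay between those of Stag1 and Stag2, with libraries overlapping both. Rec8, the meiotic kleisin, named after its values were seen, was called higher at a low level (0.95 ± 0.31 SE, adjusted p = 0.0442, 10.9 ± 2.57 CPM in RPF and 5.65 ± 1.06 CPM in total RNA, SD, n = 2).

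Of 8 tested genes of the SMC5/6 complex, a related machine that acts in DNA repair, 3 were higher and 2 lower. The SUMO ligase Nsmce2 was higher (log2 1.10 ± 0.18 SE, adjusted p = 0.00358), and so were, named after their values were seen, the RING-domain subunit Nsmce1 (0.76 ± 0.16 SE, adjusted p = 0.00942) and the ATPase Smc5 (0.57 ± 0.18 SE, adjusted p = 0.04). The localisation factors Slf2 (-1.29 ± 0.17 SE, adjusted p = 0.00202) and, named after its values were seen, Slf1 (-0.67 ± 0.17 SE, adjusted p = 0.0181) were lower. Among the chromosome partners of condensin, Top2a, topoisomerase II alpha (0.55 ± 0.19 SE, adjusted p = 0.0484), and, named after its values were seen, the chromokinesin Kif4 (0.50 ± 0.13 SE, adjusted p = 0.0203) were higher, and Mki67, which coats mitotic chromosomes, was lower (-0.46 ± 0.15 SE, adjusted p = 0.0438). Kif4 shares 15.8% of its 28-base stretches with other genes, Pdzd11 foremost, and Top2a 6.21%.

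Many of these calls were lost without 1 of the total RNA libraries, which leaves 1 library in that group. The coding share correction also ended the calls of Rec8, Smc5, Nsmce1, Top2a and Kif4, with an adjusted p of 0.0505 (Nsmce1) to 0.221 (Kif4). It added Hdac8, a deacetylase of SMC3, as higher (log2 0.89, adjusted p = 0.043). Sgo1 (-0.50, adjusted p = 0.0261) and Ncapg2 (-0.39, adjusted p = 0.0494) were added as lower. Hdac8 and Sgo1 were named after their values were seen. With the correction, 4 related genes were higher and 8 lower. Without total RNA replicate 2 the related genes called were Pttg1, Esco1 and Nsmce2 as higher and Slf2 as lower, 3 and 1 in place of 9 and 6. Without total RNA replicate 1 they were these 4 with Nsmce1 and Mau2, 4 and 2. Leaving out an RPF library also leaves 1 library in that group. Without RPF replicate 1, Top2a (log2 0.40), Mki67 (-0.33), Nipbl (-0.45) and Rec8 (0.69) lost their calls. Stag3 then gained one as higher (0.51), resting on RPF replicate 2 alone. In RPF replicate 1, Stag3 stood at 76.2 CPM, within its total RNA range of 72.5 to 94.4 CPM. Without RPF replicate 2, Smc5 lost its call (0.35) and Hdac8 gained one as higher (0.92).

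**Figure D5:**
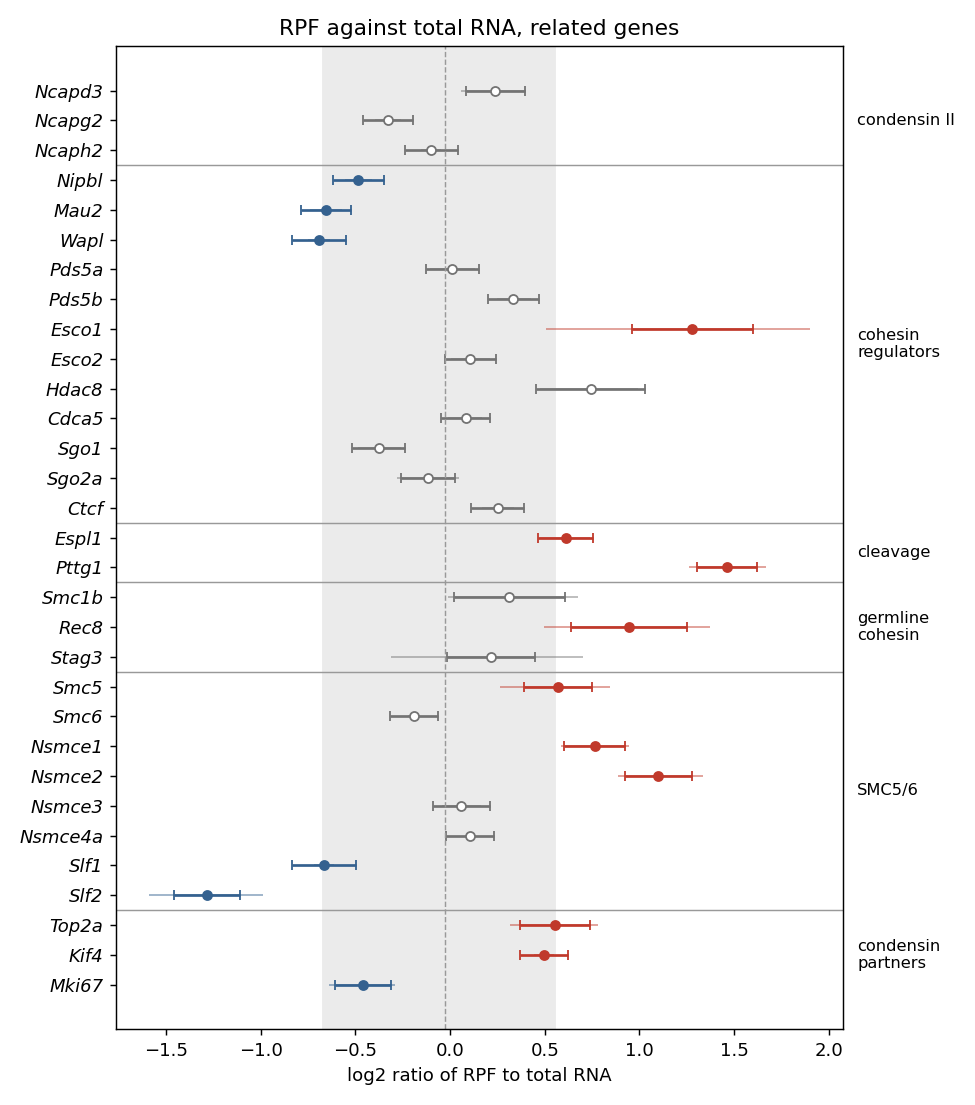
Log2 ratio of RPF to total RNA (x axis) for 31 related genes by group; points and capped bars are the fitted ratio and its standard error, thin lines the range over the 4 pairings of libraries, red a call as higher, blue a call as lower and open points no call. The grey band runs from -0.67 to 0.56, the middle of all genes tested; Pttg1 (1.46) lies farthest right and Slf2 (-1.29) farthest left.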

How the data were processed

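The deposited files hold raw counts of reads per Ensembl gene; per the submitters' processing notes they were made on mm9 with HTSeq 0.11.2, TopHat2 2.1.1, Bowtie 1.2.3 and edgeR 3.26.8, whose roles are not stated. Not given in the sources used here: annotation release, counted feature, strand setting and how the 4 runs of each RPF library were joined. Per the labels' protocols, reads were 50 bases long.

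GENCODE M21 (GRCm38) named 32621 of 37311 identifiers (87.4%) and gave lengths and sequences; no coordinates are given, since the builds differ. Closing tallies stayed out of library sizes. Eid3 is not analysed here.

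RPF was tested against total RNA in edgeR 4.0.16 (R 4.3.3; quasi-likelihood, two-sided, Benjamini-Hochberg, threshold 0.05) on fraction alone, after filterByExpr (minimum count 10, minimum total 15) and TMM scaling. CPM are TMM-normalised. The standard error is the log2 ratio over the square root of F. Alternatives used DESeq2 1.42.0 and limma 3.58.1, among others. Intervals cover counting error only. The p-values rest on the spread between 2 libraries per fraction, with each gene's variance drawn toward a value shared across genes.

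Named genes were the 10 members, Eif4a3, the condensin II subunits, and the highest and lowest ratio at 10 CPM or more in each related list; others are marked as named after their values were seen. Members and lists were chosen with earlier results of these data known.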

Additional observations from a re-analysis of the deposited data

How the results depend on the processing

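The count of members called higher, 5, was 4 to 6 under DESeq2 size factors, unfiltered counts, a minimum mean of 10 CPM, DESeq2, limma-voom, protein-coding genes only and a replicate block. It was 1 with library size alone, 1 with glmTreat against a fold of 1.5, 2 after correction for coding share, and 2 to 4 with single libraries left out. Members called lower, 0, became 2 with library size alone (Stag1 and Stag2) and 1 with the replicate block (Stag1). Related genes called higher, 9, became 2 with library size alone, 5 with no count filter, 2 with glmTreat, 4 after correction for coding share, and 3 to 9 with libraries left out; those called lower, 6, became 12 with library size alone, 3 with DESeq2, 1 with glmTreat, and 1 to 6 with libraries left out. Over all genes, 2835 higher and 2930 lower became 1223 and 4961 with library size alone and 1155 and 1549 with glmTreat, and ran from 1720 to 3341 and from 1857 to 3440 with libraries left out.

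Signs turned with library size alone for Rad21 (-0.37), Smc4 (-0.25), Ncapd2 (-0.12), Ncapg (-0.013), Ncapd3 (-0.20) and Stag3 (-0.20). They turned after correction for coding share for Rad21 (-0.11), Smc4 (-0.11), Ncapd3 (-0.015) and Stag3 (-0.068), and with a minimum mean of 10 CPM for Rad21 (-0.019). With single libraries left out, Rad21 ran from -0.022 to 0.14, Stag2 from -0.30 to 0.16 and Stag3 from -0.12 to 0.51. Of these genes only Ncapg was called in the fit reported here. The causes were not tested. The highest total RNA density over the lowest, 10.8, became 8.58 with the longest-coding transcript.

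Replicate numbers are shared between fractions, but the labels do not say that a number marks one culture. Deviations from the group means correlated at 0.48 between same-numbered libraries, with 2 pairs. With replicate number as a block, 4257 genes were higher and 4365 lower, Ncapd2 (0.31, adjusted p = 0.00199) joined the members called higher, and Stag1 (-0.26, adjusted p = 0.0108) was called lower. Among the condensin II subunits the block added Ncapd3 as higher (0.23, adjusted p = 0.025) and Ncapg2 as lower (-0.33, adjusted p = 0.00189). The block leaves little of each gene's own spread to measure, so its calls rest mostly on a variance shared across genes.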
